A study of Mus musculus with 6 samples.

Results

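The genes described here are the 9 members of the MYC, MAX and MXD network that were taken by name from the 55573 genes listed for each library, namely *Myc*, *Mycl*, *Max*, *Mxd1*, *Mxd3*, *Mxd4*, *Mnt*, *Mlx* and *Mga*. No measured value was used to choose them, but they and the gene lists below were chosen with earlier results of these data known. All 9 had reads in every library and passed the requirement of at least 10 counts summed over the libraries. MYC and MYCL bind DNA as dimers with MAX, preferentially at a short palindromic sequence called the E-box, and raise the transcription of genes for ribosome production, nucleotide synthesis and cell division. The MXD proteins and MNT compete for MAX and bring the SIN3 corepressor with its histone deacetylases to the same kind of site, and MXD1 is known to accumulate as cells of many lineages leave the cell cycle and differentiate. MLX is an alternative partner of MXD1, MXD4 and MNT and of the nutrient-sensing MondoA protein, whereas MGA joins MAX to a Polycomb repressive complex. In osteoclast precursors, MYC is known to be induced by RANKL and to be needed for their differentiation.

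The members were measured by mRNA sequencing of osteoclasts, the multinucleated cells that resorb bone, grown from bone marrow-derived macrophages (BMMs) of 10-week-old male mice and kept for 4 days in 30 ng/ml of M-CSF with 10 ng/ml of RANKL. The 3 Rosa-Hes1 libraries came from *Ctsk* Cre/WT;*Rosa* Hes1 mice, in which a Cre recombinase knocked into 1 allele of *Ctsk*, the cathepsin K gene, removes a STOP cassette from a *Hes1* coding sequence placed in the *Rosa26* locus, so that the Notch target and transcriptional repressor HES1 is made in *Ctsk*-expressing cells. The 3 control libraries came from littermates that carried the same *Rosa* [STOP]Hes1 allele with its STOP cassette in place and no Cre, and the labels call them wild type. The *Rosa* allele was obtained in an ICR background and the *Ctsk* Cre allele in a C57BL/6 background. Cre was present in the Rosa-Hes1 group alone, so that its own effect and that of HES1 cannot be told apart here. RNA was taken from whole cultures, in which precursors and osteoclasts were not separated, and in such bulk RNA fewer cells of a type and less RNA per cell cannot be told apart. The labels number the libraries of each group as biological replicates and do not say whether each came from its own mouse.

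Each library held between 13038362 and 15956331 counts assigned to genes, and levels are given as CPM, the counts of a gene divided by the TMM-scaled library size and multiplied by 1e6. *Hes1*, the induced gene, was at 0.517, 0.557 and 0.296 CPM in control replicates 1 to 3 and at 4.95, 4.83 and 6.91 CPM in the Rosa-Hes1 replicates, a log2 fold change of 3.57 ± 0.30 (SE; edgeR adjusted p = 0.00477), so that the labels and the transcript matched in all 6 libraries. *Ctsk*, whose locus carries Cre, *Gt(ROSA)26Sor*, the transcript of the *Rosa26* locus, and the study's reference gene *Rpl38* had log2 fold changes of 0.08, 0.83 and -0.10, with edgeR adjusted p of 0.709, 0.0723 and 0.339. Along the first principal component, which held 47.2% of the variance, Rosa-Hes1 replicate 2 was the library of its group nearest to the controls. Osteoclast markers were abundant in both groups, the 12 markers read summing to at least 11249 CPM in every library. Of these 12, 10 were called higher in Rosa-Hes1 cultures, against 5.85% of all genes tested, and none lower. That difference between the groups does not itself show the identity of the cultures. Several of the markers were also singled out by the study in these samples and are not independent evidence. The number called was 6, 10 and 4 without control replicates 1, 2 and 3, 2, 10 and 5 without Rosa-Hes1 replicates 1, 2 and 3, and 6 with no filter on low counts.

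*Myc*, per exon length the most abundant transcript of the network, was the member that fell. It was present at 206, 200 and 192 CPM in control replicates 1, 2 and 3, and at 159, 161 and 137 CPM in Rosa-Hes1 replicates 1, 2 and 3. Every Rosa-Hes1 library lay below every control library. The means were 199 ± 7.09 CPM (SD, n = 3) and 153 ± 13.1 CPM (SD, n = 3), a decrease to 0.766-fold with a log2 fold change of -0.39 ± 0.08 (SE; 95% interval -0.56 to -0.21; edgeR adjusted p = 0.0224). The gene (ENSMUSG00000022346) lies on the plus strand at chr15:61985391-61990374 of GRCm38 and shared no exonic base with another gene. The call depended on the full set of libraries, since the adjusted p was 0.0851, 0.0629 and 0.0556 without control replicates 1, 2 and 3 in turn, 0.0739 and 0.0597 without Rosa-Hes1 replicates 1 and 3, and 0.0127 without Rosa-Hes1 replicate 2. Its size was stable, with a log2 fold change between -0.43 and -0.32 over these fits and the other alternatives tried.

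*Mycl* encodes the related L-MYC protein. Its levels stood at 16.2, 18.4 and 14.9 CPM in the control libraries and at 16.1, 14.9 and 11.6 CPM in the Rosa-Hes1 libraries, so that the groups overlapped. The log2 fold change of -0.22 ± 0.14 (SE; 95% interval -0.55 to 0.11) did not pass the test (edgeR adjusted p = 0.391). An effect of the size seen for *Myc* lies inside this interval. *Mycl* (ENSMUSG00000028654) lies on the plus strand at chr4:122995652-123002485.

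*Max* encodes the obligate partner of the MYC proteins and of the antagonists. It was present at 101, 107 and 96.2 CPM in the control libraries and at 96, 98.1 and 96.9 CPM in the Rosa-Hes1 libraries. The Rosa-Hes1 libraries lay close together, inside or just below the control range. The log2 fold change was -0.06 ± 0.06 (SE; edgeR adjusted p = 0.603), and its 95% interval, expressed as a fold, ran from 0.86 to 1.06. *Max* (ENSMUSG00000059436) lies on the minus strand at chr12:76937269-76962201.

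Among the antagonists, *Mxd1* was the member that rose. It was present at 17.9, 23 and 19.4 CPM in control replicates 1, 2 and 3 and at 30.6, 25.8 and 30.2 CPM in Rosa-Hes1 replicates 1, 2 and 3. All 3 Rosa-Hes1 libraries lay above the controls, and the nearest values of the groups were those of control replicate 2 and Rosa-Hes1 replicate 2. The means were 20.1 ± 2.62 CPM and 28.9 ± 2.65 CPM (SD, n = 3 each), an increase of 1.44-fold with a log2 fold change of 0.52 ± 0.12 (SE; 95% interval 0.25 to 0.79; edgeR adjusted p = 0.0327). The gene (ENSMUSG00000001156) lies on the minus strand at chr6:86647042-86669161. The adjusted p was 0.0307 and 0.0127 when replicate 2 of the control or of the Rosa-Hes1 group was left out, but 0.117 and 0.0997 without control replicates 1 and 3 and 0.13 and 0.0976 without Rosa-Hes1 replicates 1 and 3. In every alternative its log2 fold change lay between 0.45 and 0.63.

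*Mxd3*, the family member associated with proliferating rather than differentiating cells, was the least abundant of the network per exon length, with 17 to 44 counts per library. It was at 2.21, 2.54 and 3.25 CPM in the control libraries and at 1.85, 2.02 and 1.24 CPM in the Rosa-Hes1 libraries, with no overlap between the groups. The log2 fold change of -0.64 ± 0.27 (SE) was the largest of the 9 in size but had the widest 95% interval, -1.25 to -0.03, and did not pass the test across all genes (edgeR adjusted p = 0.178). The gene (ENSMUSG00000021485) lies on the minus strand at chr13:55325168-55329823, where 105 exonic bases are shared with *Prelid1* on the other strand. *Prelid1* averaged 187 CPM in the controls and 226 CPM in the Rosa-Hes1 group, and reads from the shared bases could be told apart only if strand was used in counting, which is not given in the sources used here.

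*Mxd4* is another antagonist that is usually linked to differentiated cells, and it varied widely between replicates, with an SD of 6.1 CPM in the controls and 7.47 CPM in the Rosa-Hes1 group. It was at 17.2, 22.4 and 29.4 CPM in the control libraries and at 28.8, 21.3 and 36.2 CPM in the Rosa-Hes1 libraries. Control replicate 3 exceeded Rosa-Hes1 replicates 1 and 2, and the log2 fold change of 0.32 ± 0.24 (SE; 95% interval -0.24 to 0.89) did not pass the test (edgeR adjusted p = 0.466). The log2 fold change of *Mxd1*, 0.52, lies inside this interval. *Mxd4* (ENSMUSG00000037235) lies on the minus strand at chr5:34173883-34187720, where 514 exonic bases are shared with *Gm42846* on the other strand, a gene with 0 counts in every library.

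*Mnt*, the broadly expressed MAX partner that opposes MYC in dividing and resting cells alike, varied little. It was at 49.4, 47.6 and 49.3 CPM in the control libraries and at 51.4, 50.2 and 51.7 CPM in the Rosa-Hes1 libraries. The groups did not overlap, but the distance between them was small, and the log2 fold change of 0.07 ± 0.06 (SE) did not pass the test (edgeR adjusted p = 0.583). Its 95% interval ran from 0.95-fold to 1.16-fold. *Mnt* (ENSMUSG00000000282) lies on the plus strand at chr11:74830920-74845725.

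*Mlx* and *Mga* encode the members that link the network to nutrient sensing and to Polycomb repression. *Mlx* was at 62.4, 65.6 and 62.4 CPM in the control libraries and at 63.3, 61.7 and 67 CPM in the Rosa-Hes1 libraries, with a log2 fold change of 0.01 ± 0.07 (SE; edgeR adjusted p = 0.939) and an interval of 0.91-fold to 1.12-fold. *Mga* was at 126, 128 and 110 CPM in the control libraries and at 111, 122 and 103 CPM in the Rosa-Hes1 libraries, with a log2 fold change of -0.11 ± 0.09 (SE; edgeR adjusted p = 0.485) and an interval of 0.81-fold to 1.06-fold. The groups overlapped for both genes. *Mlx* (ENSMUSG00000017801) lies on the plus strand at chr11:101087277-101092207, where 385 exonic bases are shared with *Psmc3ip* on the other strand. *Psmc3ip* had 212, 265 and 223 counts in the control libraries and 154, 175 and 126 in the Rosa-Hes1 libraries. As for *Mxd3*, reads from the shared bases could be told apart only if strand was used in counting. *Mga* (ENSMUSG00000033943) lies on the plus strand at chr2:119897228-119969581.

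**Figure D1:**
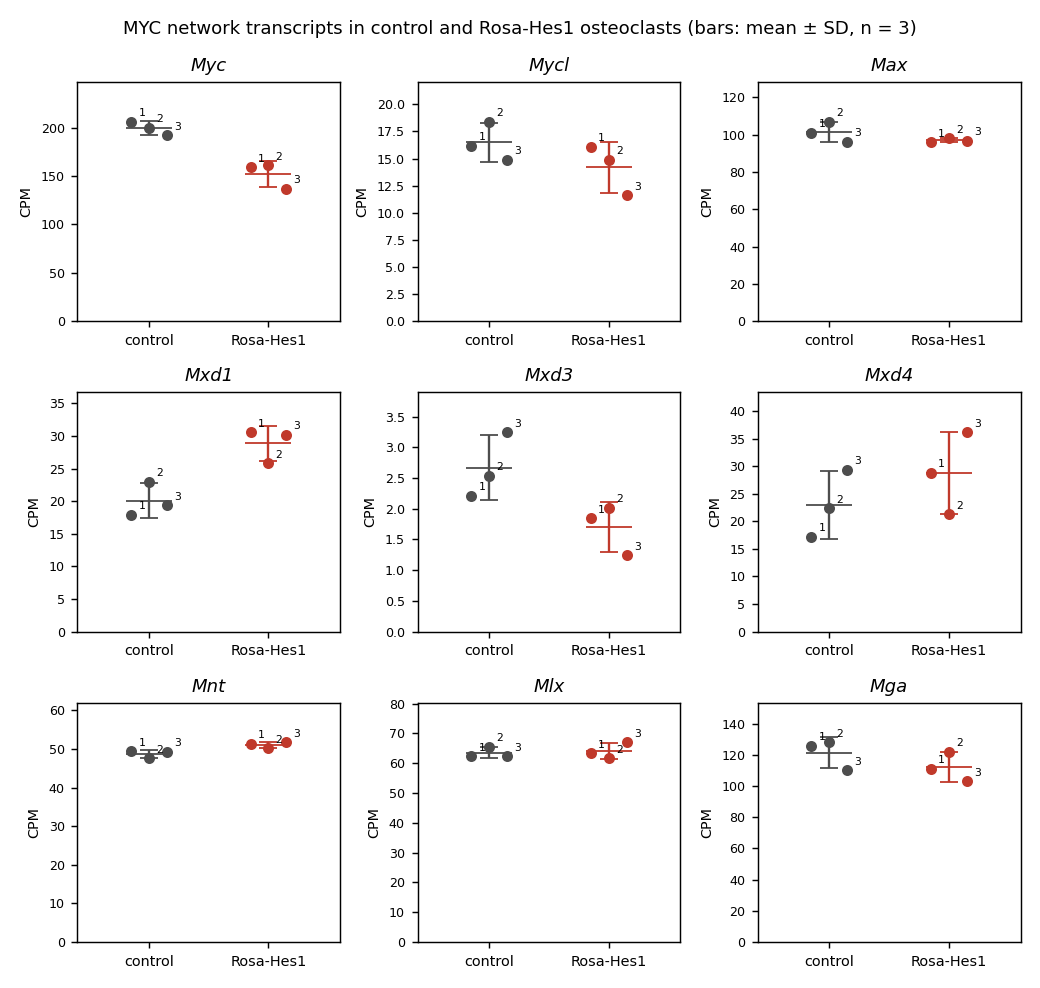
Level of each network gene in CPM (vertical axis, starting at 0 and scaled separately for each gene) in the 3 control and 3 Rosa-Hes1 libraries, with points numbered by replicate and lines giving mean ± SD. *Myc* lay lower and *Mxd1* higher in every Rosa-Hes1 library than in any control library, whereas the points of *Mycl*, *Max*, *Mxd4*, *Mlx* and *Mga* overlapped.

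Thus 1 of the 9 members was called higher and 1 lower. Across all 16954 genes tested, 8.25% were called at an adjusted p under 0.05, 5.85% being higher and 2.41% lower in Rosa-Hes1 cultures. The groups did not overlap for 4 of the 9 members, *Myc*, *Mxd1*, *Mxd3* and *Mnt*, against 31.2% of all genes tested. With 9 genes these counts do not set the network apart from other genes. The median log2 fold change was -0.06 over the members and -0.01 over all genes.

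**Figure D2:**
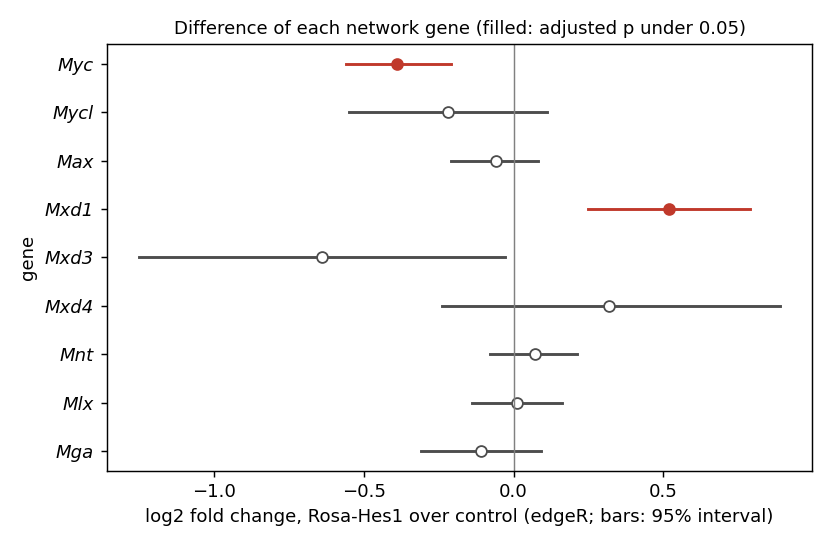
Log2 fold change of Rosa-Hes1 over control cultures for each network gene (horizontal axis), with 95% intervals from edgeR and filled points where the adjusted p over all genes was under 0.05. *Myc* at -0.39 and *Mxd1* at 0.52 are the filled points, and the intervals of *Max*, *Mnt* and *Mlx* are the narrowest.

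Levels were compared between genes as RPKM, the CPM divided by the exon length in kilobases, since the merged exons of the members ranged from 1999 bases in *Mlx* to 15340 bases in *Mga*. On this scale *Myc* stood first in control cultures at 73.4 ± 2.61 RPKM (SD, n = 3), followed by *Mlx* at 31.7 ± 0.934 and *Max* at 28.2 ± 1.44. *Mnt* was at 10.5 ± 0.222 RPKM, *Mga* at 7.92 ± 0.633 and *Mycl* at 4.09 ± 0.448. The repressive MXD genes closed the order, with *Mxd1* at 2.84 ± 0.371 RPKM, *Mxd4* at 2.71 ± 0.719 and *Mxd3* at 1.13 ± 0.225. Of the neighbours in this order, only the control libraries of *Mxd1* and *Mxd4* overlapped. In Rosa-Hes1 cultures the order was the same, except that *Mxd1* at 4.09 ± 0.375 RPKM stood above *Mycl* at 3.51 ± 0.581, and the libraries of *Mycl*, *Mxd1* and *Mxd4* overlapped each other. The order depends on the merged exon lengths, which pool all transcripts of a gene. By CPM, *Mxd1* at a mean of 20.1 already stood above *Mycl* at 16.5 in the control libraries.

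The levels of *Myc* and *Mxd1*, the members called, were compared within each library, where the comparison does not depend on sequencing depth. *Myc* supplied 46.4%, 44.3% and 44.8% of the summed RPKM of the 9 genes in the control libraries and 39.6%, 40.4% and 35.9% in the Rosa-Hes1 libraries. *Mxd1* supplied 1.54%, 1.95% and 1.74% in the control libraries and 2.93%, 2.48% and 3.03% in the Rosa-Hes1 libraries. *Myc* thus remained far above *Mxd1* in every library, but the distance narrowed. There were 30, 22.6 and 25.8 units of *Myc* RPKM per unit of *Mxd1* in control replicates 1, 2 and 3, and 13.5, 16.3 and 11.8 in Rosa-Hes1 replicates 1, 2 and 3. Relative to the shared partner, *Myc* was at 2.69, 2.48 and 2.64 times the RPKM of *Max* in the control libraries and at 2.19, 2.18 and 1.88 times in the Rosa-Hes1 libraries. The corresponding ratio of *Mxd1* to *Max* was 0.0897, 0.11 and 0.102 in the control libraries and 0.162, 0.134 and 0.159 in the Rosa-Hes1 libraries. Rosa-Hes1 replicate 2 was the library of its group nearest to the controls for *Myc* to *Mxd1* and for *Mxd1* to *Max*. These ratios restate the *Myc* and *Mxd1* values above, were given no test of their own, and refer to transcripts, not to the amounts of the proteins. Their size, unlike their change between the groups, depends on the exon lengths used. They leave out the other antagonists and do not describe the network's balance as a whole. *Mnt*, the antagonist member with the highest RPKM, was at 10.5 ± 0.222 RPKM in control and 11 ± 0.164 RPKM in Rosa-Hes1 libraries (SD, n = 3 each).

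**Figure D3:**
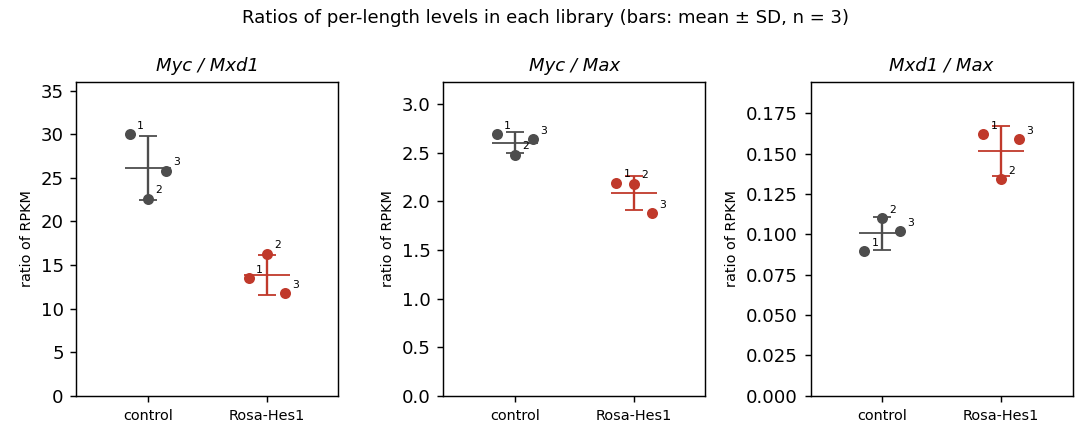
Ratios of RPKM between *Myc*, *Mxd1* and *Max* within each library (vertical axes, starting at 0), with points numbered by replicate and lines giving mean ± SD. The ratio of *Myc* to *Mxd1* ran from 22.6 to 30 in control and from 11.8 to 16.3 in Rosa-Hes1 libraries.

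The promoters of the members were examined for the sites that the network and HES1 are known to bind. The E-box CACGTG is the preferred site of MYC, MXD and MNT dimers, while HES1 binds the class C site CACGCG and the N-box CACNAG. RefSeq promoter windows of GRCm38.p6, from 250 bases before to 50 bases after the start site, were found for 8 of the 9 members, *Myc* being the exception. Each motif was sought on both strands, and no matches overlapped each other in these windows. The E-box was present in 4 of the 8 windows, those of *Max*, *Mxd4*, *Mnt* and *Mlx*, compared with 7.15% of all 32851 windows. These 4 stretches are shown because the E-box is the preferred site of the network itself, and they are written 5′ to 3′ on the strand of the gene with the E-box in capitals. Distances run from the RefSeq start site to the first base of the motif. The gene positions given further up come from another annotation, GENCODE, whose gene ends can differ from these start sites.
*Max* (chr12:76962234-76962263, minus strand, E-box from 3 bases before the start and across it): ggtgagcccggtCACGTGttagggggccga
*Mxd4* (chr5:34187912-34187941, minus strand, E-box 219 bases before the start): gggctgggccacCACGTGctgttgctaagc
*Mnt* (chr11:74830789-74830818, plus strand, E-box 123 bases before the start): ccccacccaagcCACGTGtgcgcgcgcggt
*Mlx* (chr11:101087238-101087267, plus strand, E-box 40 bases before the start): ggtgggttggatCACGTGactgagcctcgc
None of these 4 genes passed the test between the groups.

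The class C site was found in the windows of *Mycl* and *Mga*, 2 of 8 members, against 9.27% of all windows. The N-box, a loosely defined sequence, was found in 5 of 8 members and in 42.5% of all windows. The window of *Mxd1*, the member that rose, held neither an E-box nor a class C site, and its single N-box lay 219 bases before the start site. The class C sites and the *Mxd1* N-box are shown because HES1 is the induced factor, with the motif in capitals. In *Mga* the motif lies on the opposite strand and reads CGCGTG. The *Mycl* stretch lies before the RefSeq start site but inside the GENCODE gene, which begins at chr4:122995652.
*Mycl*, class C site (chr4:122995899-122995928, plus strand, 20 bases before the start): ccaagccccgggCACGCGacgagatataaa
*Mga*, class C site (chr2:119897195-119897224, plus strand, 21 bases before the start): agctggtaggagCGCGTGcgcagtgacgtg
*Mxd1*, N-box (chr6:86669361-86669390, minus strand, 219 bases before the start): ggcaggctgaagCACGAGgcggagttgcga
The E-box was also found in 27 of 118 promoter windows of the MYC-activated genes described further on, or 22.9%, and 94 of those 105 genes had a window. A match describes letters in a window and does not show that a factor was bound there.

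The genes whose profiles over the 6 libraries were most like those of the called members were taken from the 9096 genes that averaged 10 CPM or more. For *Myc* they were *Pla2g4a* (Pearson r of log2 CPM 0.9974), *Nup88* (0.9942) and *Drg1* (0.9929). *Pla2g4a* encodes a cytosolic phospholipase that releases arachidonic acid, and *Nup88* a nuclear pore protein. For *Mxd1* they were *Ndufa4* (0.9990), a protein of the respiratory chain, *C9orf72* (0.9988), a regulator of endosomal traffic and autophagy, and *Gm30329* (0.9983). All 6 points of each correlation come from the same libraries and groups, so that any gene that differed between the groups by a like amount tends to correlate.

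Of the remaining network genes, *Mxi1* (also known as *Mxd2*), *Mlxip* (MondoA) and *Bmyc* had enough reads to test. *Mxi1* was at 31.9, 31.9 and 34.3 CPM in the control libraries and at 70, 35.1 and 56.2 CPM in the Rosa-Hes1 libraries. Rosa-Hes1 replicate 2 lay just above the controls and the other two far above them, and the log2 fold change of 0.72 ± 0.23 (SE) did not pass the test (edgeR adjusted p = 0.0991). *Mlxip* had a log2 fold change of 0.07 and *Bmyc* of 0.30, with adjusted p of 0.583 and 0.631. None of these 3 genes was called by edgeR or by limma-voom, 1 had an unadjusted p under 0.05, and DESeq2 called 1 higher, as did edgeR without Rosa-Hes1 replicate 2.

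Proteins that act on MYC were examined through a list of 25 cofactors and turnover factors. *Mycbp2*, a large ubiquitin ligase first isolated as a MYC-binding protein, was the 1 gene called, and it was lower, a count near the 2.41% called lower among all genes. It was at 136, 134 and 137 CPM in the control libraries and at 101, 114 and 103 CPM in the Rosa-Hes1 libraries, a log2 fold change of -0.35 ± 0.07 (SE; edgeR adjusted p = 0.019). *Bin1* and *Ruvbl1*, which encode a MYC-interacting adaptor and a chromatin-remodelling ATPase, had log2 fold changes of -0.28 and -0.30 and adjusted p of 0.0856 and 0.0907. The median log2 fold change over the 25 genes was -0.13. The *Mycbp2* call was lost without any single library other than Rosa-Hes1 replicate 2, with adjusted p up to 0.0859, and 7 genes of the list were called lower without Rosa-Hes1 replicate 2.

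The SIN3 corepressor, through which MXD and MNT proteins act, was represented by 14 genes, none of which was called by edgeR or limma-voom. At an unadjusted p under 0.05, 1 was higher and 3 were lower, and DESeq2 called 1 lower. With edgeR, 1 was called lower with no filter, 2 with 1 surrogate variable and 2 without Rosa-Hes1 replicate 2. The histone-binding subunits *Rbbp4* and *Rbbp7* had log2 fold changes of -0.27 and -0.23, and the scaffold genes *Sin3a* and *Sin3b* had values of -0.18 and 0.16, with adjusted p from 0.0623 to 0.179. The list median was -0.05.

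The Polycomb complex that MGA forms with MAX, PRC1.6, was represented by 14 genes, of which 3 were called lower, against 2.41% of all genes tested, and none higher. *Tfdp1*, the dimer partner of E2F factors, averaged 171 ± 5.96 CPM (SD, n = 3) in the controls and fell to 128 ± 15.1 CPM (SD, n = 3), with a log2 fold change of -0.42 (edgeR adjusted p = 0.0276). *Cbx3*, which encodes a heterochromatin protein, and *L3mbtl2*, which encodes the methyl-lysine reader of the complex, had log2 fold changes of -0.36 and -0.40 with adjusted p of 0.029 and 0.0438. The median over the list was -0.22, and 13 of 14 genes had a value below 0, against 51.4% of all genes tested. No gene of the list was called when any one library other than Rosa-Hes1 replicate 2 was left out, and 5 were called lower without that library. Of 12 germline genes known as targets of this complex, 5 had enough reads to test and 4 had no reads at all. *Zcwpw1*, a histone methylation reader of meiotic cells, was the 1 of the 5 tested that was called, against 2.41% of all genes called lower. It was at 6.27, 5.57 and 5.69 CPM in the control libraries and at 3.17, 3.46 and 2.25 CPM in the Rosa-Hes1 libraries (log2 fold change -0.98 ± 0.20, edgeR adjusted p = 0.023). This call too was lost without any 1 of the other libraries and held without Rosa-Hes1 replicate 2.

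For MLX and MondoA, whose dimers respond to glucose-derived metabolites, *Txnip* and *Arrdc4* are the classical targets. *Txnip* was at 180, 183 and 222 CPM in the control libraries and at 330, 174 and 308 CPM in the Rosa-Hes1 libraries, and *Arrdc4* at 33, 32.8 and 35.9 CPM and at 51.3, 32.3 and 44.1 CPM. In both genes Rosa-Hes1 replicate 2 lay below every control library while the other Rosa-Hes1 libraries lay above them all. The adjusted p of *Txnip* was 0.28 and that of *Arrdc4* 0.226, and *Klf10* had a log2 fold change of -0.01. None of these 3 genes was called by edgeR, limma-voom or DESeq2 or had an unadjusted p under 0.05, but 2 were called higher by edgeR without Rosa-Hes1 replicate 2.

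Genes reported to be activated by MYC, called MYC-activated here, were read as 4 lists that together held 105 genes, all of which were tested. The gene *Ung* stood in a pair of these lists and was counted once. Of the 105 genes, 13 were called lower, against 2.41% of all genes tested, and none was called higher in Rosa-Hes1 cultures. At an unadjusted p under 0.05, 64 were lower and 4 higher, DESeq2 called 46 lower and 2 higher, and limma-voom called 14 lower and none higher. The log2 fold change was below 0 in 91.4% of the 105 genes, compared with 51.4% of all genes tested, and the medians were -0.30 and -0.01. The number called lower was 2, 3 and 5 without control replicates 1, 2 and 3, 0 and 2 without Rosa-Hes1 replicates 1 and 3, and 60 without Rosa-Hes1 replicate 2, whereas the list's median stayed between -0.39 and -0.23 in every alternative.

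The largest of these lists, ribosome biogenesis, held 43 genes, of which 5 were called lower, against 2.41% of all genes tested. *Nop58* and *Nop56*, core proteins of the box C/D particles that guide ribosomal RNA methylation, both had a log2 fold change of -0.54, with adjusted p of 0.0229 and 0.0368. *Nop58* was at 241, 238 and 206 CPM in the control libraries and at 149, 182 and 139 CPM in the Rosa-Hes1 libraries, with no overlap. *Rcl1* and *Mphosph10*, which act in processing of the small subunit RNA, and *Gnl3*, the gene of nucleostemin, had log2 fold changes of -0.58, -0.33 and -0.46 and adjusted p from 0.0283 to 0.0401. In all, 41 of the 43 genes had a value below 0, against 51.4% of all genes tested, and the median was -0.33.

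Enzymes and transporters of nucleotide and polyamine synthesis were represented by 25 genes. Of these, 2 were called lower, against 2.41% of all genes tested. *Ctps*, which makes CTP, was at 90.3, 89.6 and 69.2 CPM in the control libraries and at 51.6, 65.4 and 47.3 CPM in the Rosa-Hes1 libraries (log2 fold change -0.60 ± 0.14, edgeR adjusted p = 0.0429). *Tyms*, the gene of thymidylate synthase, was at 59, 56.3 and 54.1 CPM and at 38.1, 48.1 and 32.5 CPM (log2 fold change -0.51 ± 0.13, edgeR adjusted p = 0.049). The purine enzyme *Atic* and the nucleoside transporter *Slc29a2* had log2 fold changes of -0.36 and -0.54 and adjusted p of 0.0564 and 0.0605. The median was -0.33, and 23 of the 25 genes had a value below 0, against 51.4% of all genes tested.

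In the list of translation, mitochondrial and glycolytic genes, 1 of 21 was called lower, near the 2.41% of all genes. A value below 0 was seen in 18, against 51.4% of all genes, and the median was -0.10. The gene called was *Pprc1*, a coactivator of mitochondrial gene expression, at 145, 131 and 124 CPM in the control libraries and at 86.8, 113 and 88.5 CPM in the Rosa-Hes1 libraries (log2 fold change -0.47 ± 0.11, edgeR adjusted p = 0.0367). *Exosc5*, a subunit of the RNA exosome, and *Eif5a*, a translation factor, had log2 fold changes of -0.38 and -0.22 and adjusted p of 0.0627 and 0.0838. *Hk2* and *Ldha*, which encode a hexokinase and a lactate dehydrogenase subunit of glycolysis, had the opposite sign. *Hk2* was at 102, 104 and 96.7 CPM in the control libraries and at 188, 102 and 169 CPM in the Rosa-Hes1 libraries, so that replicate 2 alone lay within the control range (log2 fold change 0.60 ± 0.21, edgeR adjusted p = 0.122). *Ldha* was at 966, 1050 and 1165 CPM and at 1783, 1073 and 1599 CPM, again with replicate 2 inside the control range (log2 fold change 0.49 ± 0.18, edgeR adjusted p = 0.14). In this list 2 genes were higher at an unadjusted p under 0.05, and 2 were called higher by DESeq2 and in the edgeR fit without Rosa-Hes1 replicate 2. *Pprc1* was not called when any other library was left out.

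Cell cycle genes listed as activated by MYC held the smallest adjusted p of the 4 lists. Of 17 genes, 5 were called lower, against 2.41% of all genes tested. *Ccnd1*, the gene of cyclin D1, was at 387, 375 and 429 CPM in the control libraries and at 236, 292 and 240 CPM in the Rosa-Hes1 libraries (log2 fold change -0.63 ± 0.10, edgeR adjusted p = 0.0093). *E2f1*, a transcription factor of S phase entry, was at 80.2, 79.7 and 79.3 CPM and at 61.3, 61.6 and 60.1 CPM (log2 fold change -0.39 ± 0.06, edgeR adjusted p = 0.0101). In *E2f1* the replicates of each group lay close together. *E2f2*, *Mcm4*, a subunit of the replicative helicase, and *Ccne1*, the gene of cyclin E1, had log2 fold changes of -0.66, -0.47 and -0.60 and adjusted p from 0.0229 to 0.0467. Among the 13 called targets of all lists, *Ccnd1* and *E2f1* each passed in 5 of the 6 fits that left out 1 library, failing without Rosa-Hes1 replicate 1 at adjusted p of 0.0549 and 0.0521, and the others passed in 1 or 2 of the 6. The list median was -0.30, and it moved to -0.39 when control replicate 3 was left out and to -0.21 when Rosa-Hes1 replicate 3 was.

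Markers of proliferating cells that belong to none of these lists moved the same way. The lists were chosen from general knowledge, and absence from them does not show that a gene is unaffected by MYC. Of 25, 8 were called lower, against 2.41% of all genes tested, and none higher. All 25 had a log2 fold change below 0, against 51.4% of all genes tested, and the median was -0.44. At an unadjusted p under 0.05, 22 were lower, and DESeq2 called 19 lower. The replication genes *Mcm3*, *Mcm6* and *Mcm2* and the spindle gene *Nusap1* had values of -0.50, -0.48, -0.58 and -0.51. The summed level of the 25 genes ranged from 4546 to 5153 CPM in the control and from 2828 to 4197 CPM in the Rosa-Hes1 libraries, while that of 12 osteoclast markers ranged from 11249 to 14400 CPM and from 17763 to 20702 CPM. The count of proliferation markers called was 0 or 1 without any single library other than Rosa-Hes1 replicate 2 and 21 without that library. The part of the makeup of the cultures in the values of *Myc*, *Mxd1* and the MYC-activated genes was not tested.

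**Figure D4:**
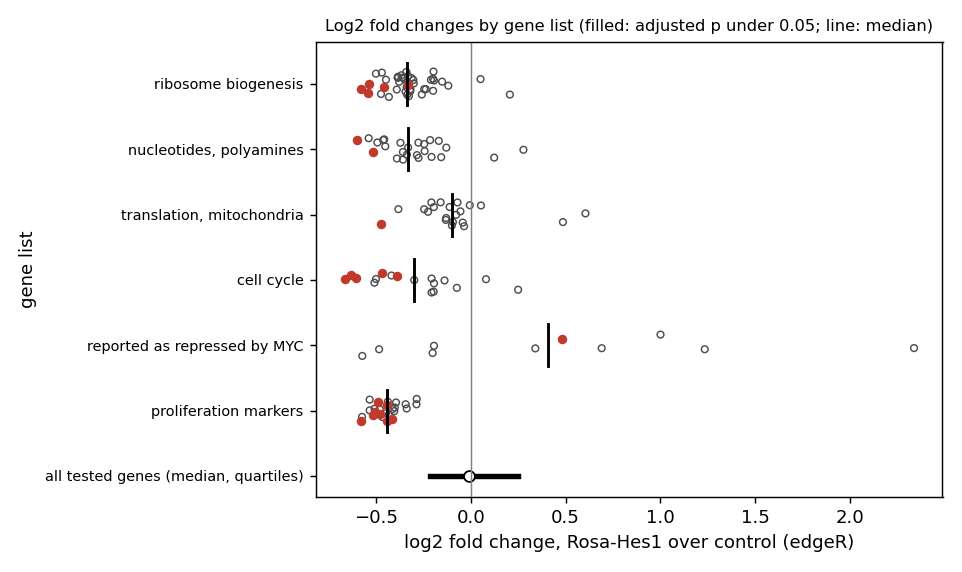
Log2 fold change of Rosa-Hes1 over control cultures (horizontal axis) for each gene of the 4 lists of MYC-activated genes, of the genes reported to be repressed by MYC and of the proliferation markers, with filled points where the edgeR adjusted p was under 0.05, a line at each list's median and the median and quartiles of all tested genes in the bottom row. The medians were -0.33, -0.33, -0.10, -0.30, 0.41 and -0.44 from top to bottom, against -0.01 for all genes.

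Genes reported to be repressed by MYC were represented by 10 genes, of which 1 was called higher, against 5.85% of all genes tested. *Cdkn1b*, the gene of the cell cycle inhibitor p27, was at 26.6, 32.1 and 27.7 CPM in the control libraries and at 43.4, 35.6 and 41.5 CPM in the Rosa-Hes1 libraries (log2 fold change 0.48 ± 0.11, edgeR adjusted p = 0.0322). Rosa-Hes1 replicate 2 was again the nearest to the controls. The call held when replicate 2 of either group was left out and was lost without each of the other libraries, with adjusted p up to 0.13. At an unadjusted p under 0.05, 3 genes of the list were higher and 1 was lower, DESeq2 called 2 higher and 1 lower, and edgeR called 3 higher without Rosa-Hes1 replicate 2. With edgeR, 1 gene was called lower with no filter, with 1 surrogate variable and without control replicate 2. No gene of the list was called with the replicate number as a block. *Cdkn2b*, the gene of the inhibitor p15, was at 3.84, 3.59 and 5.77 CPM in the control libraries and at 9.1, 5.09 and 7.05 CPM in the Rosa-Hes1 libraries (log2 fold change 0.69 ± 0.26, edgeR adjusted p = 0.139). *Ndrg1*, a stress-responsive gene, was at 5.54, 11.2 and 17.3 CPM in the control libraries and at 95.9, 14 and 62.1 CPM in the Rosa-Hes1 libraries (edgeR adjusted p = 0.164), and *Cebpa*, a myeloid transcription factor, had a log2 fold change of -0.57 (edgeR adjusted p = 0.0705). The list median was 0.41, and 4 of the 10 genes had a value below 0, against 51.4% of all genes tested. Among the genes above 0, *Gas1* had 2 to 25 counts per library and *Ndrg2* 7 to 47. The median thus rests partly on genes with few counts, and its range over the alternatives was not computed.

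MYC is known to act in osteoclasts through the nuclear receptor ERRα, encoded by *Esrra*, and upstream of NFATc1, the master transcription factor of the lineage. *Esrra* was at 76.5, 84.3 and 88.3 CPM in the control libraries and at 90.2, 93.1 and 102 CPM in the Rosa-Hes1 libraries (log2 fold change 0.20 ± 0.08, edgeR adjusted p = 0.164). *Nfatc1* was at 488, 573 and 448 CPM in the control libraries and at 662, 729 and 702 CPM in the Rosa-Hes1 libraries, and it rose (log2 fold change 0.47 ± 0.09, edgeR adjusted p = 0.0225). The ERRα coactivator gene *Ppargc1b* had a log2 fold change of 0.21 (edgeR adjusted p = 0.199). In every Rosa-Hes1 library *Nfatc1* thus lay above, and *Myc* below, all control libraries. The *Nfatc1* call held when replicate 2 of either group was left out and was lost without each of the other libraries, with adjusted p up to 0.0869.

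Markers of the other cells that marrow cultures can hold were read beside the network. Of 10 macrophage and precursor markers, 1 was called higher and 1 lower, against 5.85% and 2.41% of all genes tested. Their summed level ranged from 4375 to 5328 CPM in the control and from 4671 to 5607 CPM in the Rosa-Hes1 libraries. The B cell markers summed to between 3.62 and 5.82 CPM and the T and NK cell markers to between 3.23 and 7.49 CPM over all libraries, with *Cd3e* and *Cd3g* at 0 counts. Neutrophil markers summed to between 206 and 397 CPM in the control and between 196 and 269 CPM in the Rosa-Hes1 libraries, and stromal markers to between 179 and 486 CPM and between 113 and 377 CPM. No marker of B cells, T and NK cells, neutrophils, stroma, erythroid cells, mast cells or endothelium was called by edgeR, DESeq2 or limma-voom, and 1, a neutrophil gene, had an unadjusted p under 0.05.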

How the data were processed

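Gene counts of 6 mouse osteoclast libraries were used as deposited. According to the methods and the submitters' processing notes, the authors trimmed paired reads with Sickle, mapped them with HISAT2 2.1.0, converted the alignments with SAMtools 1.9, discarded duplicate reads (Picard) and obtained the count of each gene with HTSeq. The methods name a human genome, whereas the notes name GRCm38 and the files hold mouse gene identifiers. Whether HTSeq used strand is not given in the sources used here. Reads outside genes (17.4 to 18.1% per library) and ambiguous reads (5.51 to 6.07%) were left out.

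Identifiers were matched to GENCODE M21 (GRCm38), and 93 of 55573 had no symbol. Genes whose counts reached a sum of 10 were tested with edgeR 4.0.16 in R 4.3.3 (TMM, robust quasi-likelihood F test, 3 control against 3 Rosa-Hes1 libraries, no covariate, the authors' covariates not being named), with Benjamini-Hochberg adjustment over all 16954 genes and a threshold of 0.05. The step was tested on simulated counts. CPM were computed on TMM-scaled library sizes, log2 CPM used a prior count of 0.5, and RPKM used merged exon lengths. Replicates of a group differed by more than sampling noise, with chi-square per degree of freedom of 10.1 to 19.8.

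Alternatives were other normalizations and filters, DESeq2 1.42.0, limma-voom (limma 3.58.1), 1 surrogate variable (sva 3.50.0), a replicate block and leaving out each library. The members and gene lists were chosen from general knowledge of the network with earlier results of these data known. Named genes were all members, *Hes1* with 3 genes of the engineered loci and reference, up to 4 genes per list with the smallest adjusted p, every called gene of lists with 5 or fewer, and the 3 genes most correlated with each called member. A gene that this rule names is not reported here.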

Additional observations from a re-analysis of the deposited data

How the results depend on the processing

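The numbers of genes called were sensitive to the libraries used. When each library was left out in turn, the genes called higher ranged from 244 (without Rosa-Hes1 replicate 1) to 1555 (without Rosa-Hes1 replicate 2) against 991, and those called lower from 21 to 1091 against 408 (the same libraries). Over the same fits the members called ranged from 0 to 1 in each direction, the MYC-activated genes called lower from 0 to 60 against 13, and those called higher from 0 to 3 against 0. Genes called lower numbered 697 with no filter, 876 with DESeq2 and 987 with 1 surrogate variable, and the MYC-activated genes among them numbered 30, 46 and 49, with 2 called higher by DESeq2. The cause of these shifts was not tested. The log2 fold change of *Mlx*, 0.01, ranged from -0.03 to 0.04 when each library was left out. The other members kept their sign in all 14 alternatives. *Myc* passed in all 8 alternatives that kept every library and *Mxd1* in 7.

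With the replicate number as a block, no member was called higher (0), since the adjusted p of *Mxd1* was 0.0642 at a log2 fold change of 0.53, and 24 MYC-activated genes were called lower. The replicate block rests on a number alone: the correlations of same-numbered libraries' deviations were 0.0168, -0.174 and 0.39. Only the libraries numbered 3 correlated best with their own number. The highest correlation, 0.479, was between control replicate 1 and Rosa-Hes1 replicate 2. With 3 libraries per group, changes of the size of those in *Mycl* or *Mxd4* could not be told from the spread, and *Mxd3* rested on 17 to 44 counts per library.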
